A study of Danio rerio with 6 samples.

Results

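The hox genes of the zebrafish, taken as every gene whose symbol begins with hox, a cluster letter from a to d and a paralog number, came to 48 of the 32520 genes in the deposited count table. They were described in RNA of larval heads at 3 days post fertilization. The 3 mutant libraries came from larvae homozygous for the srrm4[y712] allele, and the 3 wild-type libraries came from their wild-type siblings. No other allele, driver or treatment is given in the labels for either genotype. srrm4 encodes a splicing factor that promotes the inclusion of microexons in neural transcripts. The libraries of each genotype are numbered 1 to 3 in the labels, which do not say what a number stands for, nor whether libraries came from separate clutches, so p-values measure only the spread between these libraries.

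Hox genes encode homeodomain transcription factors that give cells their position along the body axis. They lie in clusters in which a gene's place in the row matches where it acts: genes with low paralog numbers are used from the hindbrain backwards, and genes with high numbers are used in the posterior trunk and tail. Genes of the high groups in the hoxa and hoxd clusters also pattern the outgrowth of paired fins and limbs. The zebrafish keeps duplicate clusters from an ancient genome duplication in teleost fish, so some genes have an a copy and a b copy.

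By the RefSeq gene order of another assembly, GRCz12tu, in which all 48 symbols were found, the members lay in 7 clusters, each on 1 chromosome and in order of paralog number, with no other protein-coding gene between them. Groups 1 to 4 held 13 members, groups 5 to 8 held 12, and groups 9 to 13 held 23. A filter on low counts kept 41 members: all 25 of groups 1 to 8, and 16 of 23 in groups 9 to 13. The 7 that did not pass were hoxc10a, hoxc11a, hoxc11b, hoxc12a, hoxc12b, hoxb13a and hoxc13a. Because that filter asks for counts in at least 3 libraries, a gene seen only in the replicate 1 libraries could not pass it, and values are therefore given for all members as well as for those that passed.

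Total counts per library lay between 52510621 and 101032166. Markers of the forebrain and midbrain were present in every library (18 of 18 listed genes passed the filter). CPM is a library's count of a gene set against 1000000 counts of that library, with library totals scaled by TMM factors. The srrm4 transcript stood at 18.7, 58.7 and 57.9 CPM in mutant replicates 1, 2 and 3, against 14.6, 53.6 and 55.1 CPM in wild-type replicates 1, 2 and 3. Its log2 fold change was 0.13 (SE 0.62, adjusted p = 1 by edgeR's quasi-likelihood test), so the amount of the transcript does not check the genotype labels. In both genotypes the replicate 1 library stood apart from replicates 2 and 3. Levels are compared between libraries for the same gene or the same sum, not between genes, because gene lengths were not used.

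The share of raw counts held by all hox genes together did not set the replicate 1 libraries apart. The hox counts were, however, spread differently along the axis in those libraries. The hox share of raw counts was 0.0490% in mutant replicate 1 and 0.0515% in wild-type replicate 1. It was 0.0556% and 0.0519% in mutant replicates 2 and 3, and 0.0544% and 0.0479% in wild-type replicates 2 and 3. Scaled by TMM, the hox sum was 569.7 and 597.0 CPM in mutant and wild-type replicate 1, against 438.8 to 530.6 CPM in the other 4 libraries. Whether the hox total differed in replicate 1 thus depended on the scaling. Of the hox counts, groups 9 to 13 held 21.0% (Wilson 95% interval 20.5 to 21.5) in mutant replicate 1 and 22.5% (22.1 to 22.9) in wild-type replicate 1. In the other libraries the same groups held 4.11% (3.93 to 4.29) and 3.65% (3.49 to 3.82) of hox counts in mutant replicates 2 and 3, and 4.24% (4.07 to 4.42) and 3.32% (3.16 to 3.48) in wild-type replicates 2 and 3. These intervals cover counting error only. Both replicate 1 shares lay far outside the range of the other 4 libraries, in the mutant as in the wild-type. Groups 1 to 4 held less of the hox counts in replicate 1, 45.0% in the mutant and 44.6% in the wild-type, against 57.5% to 60.5% in the 4 other libraries. Groups 5 to 8 held 34.0% and 32.9% in mutant and wild-type replicate 1, against 36.2% to 38.3%.

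**Figure D1:**
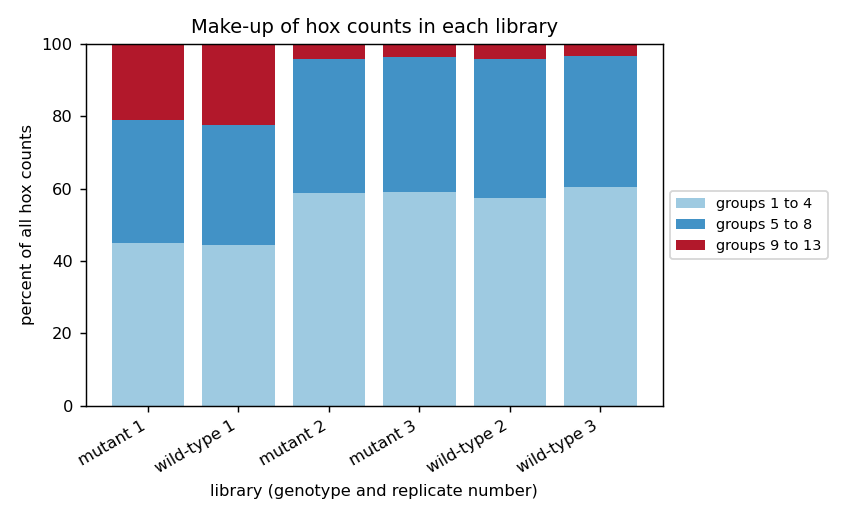
Share of all hox counts (percent, y axis) held by paralog groups 1 to 4, 5 to 8 and 9 to 13 in each of the 6 libraries, as stacked bars. Groups 9 to 13 take 21.0% and 22.5% in the mutant and wild-type replicate 1 libraries, against 3.32% to 4.24% in the others.

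On the CPM scale the difference was one of the posterior groups. Their summed level was 119.6 CPM in mutant replicate 1 and 134.5 CPM in wild-type replicate 1, against 21.8 and 17.2 CPM in mutant replicates 2 and 3 and 21.6 and 14.6 CPM in wild-type replicates 2 and 3. Groups 1 to 4 summed to 256.4 and 266.1 CPM in mutant and wild-type replicate 1, against 265.3 to 312.5 CPM in the other 4 libraries. Groups 5 to 8 summed to 193.7 and 196.4 CPM in mutant and wild-type replicate 1, against 158.9 to 196.3 CPM in the other 4. Of these 3 sums, only the posterior one was clear of the other libraries by a wide gap. The sum over groups 5 to 8 hid gaps in opposite directions. Group 5 alone summed to 80.8 and 82.5 CPM in mutant and wild-type replicate 1, against 98.9 to 113.6 CPM in the other 4. Group 7 had 9.02 and 7.73 CPM there, against 1.95 to 3.61 CPM. Group 8 had 64.2 and 66.0 CPM, against 28.2 to 40.9 CPM, and group 6 overlapped. In bulk RNA, fewer cells of a type and less RNA per cell cannot be told apart, so these sums do not say which of them differs.

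The step of a gene is its log2 CPM in replicate 1 minus the mean of replicates 2 and 3, taken within each genotype and then averaged over both genotypes. With 1 replicate 1 library in each genotype, the step is a description with no test. Its median was -0.20 in groups 1 to 4, 0.27 in groups 5 to 8 and 2.72 in the 16 members of groups 9 to 13 that passed the filter. Over all 24765 genes that passed, the median step was -0.01. Scaling by library totals alone moved the median of all genes to -0.33 and those of the 3 bands to -0.52, -0.054 and 2.39, so the small steps carry a sign only relative to all genes under TMM scaling. The mutant and wild-type pairs gave like values: -0.28 and -0.11 in groups 1 to 4, 0.25 and 0.29 in groups 5 to 8, and 2.55 and 2.93 in groups 9 to 13. With the 7 members under the filter included, the median of groups 9 to 13 was 3.08, and all 23 members had a positive step.

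Read by single paralog group over all members, the median step was -0.53, -0.04, -0.03, -0.33 and -0.29 in groups 1 to 5. It was 0.27, 1.6 and 0.84 in groups 6 to 8. Groups 9 and 10 had medians of 3.24 and 5.20, and groups 11, 12 and 13 had 2.84, 1.5 and 1.01. The median step was thus near or below 0 up to group 5, positive from group 6, greatest in group 10 and smaller again toward group 13. In group 6, however, hoxb6b was at -0.19. Under library totals the steps of hoxa5a, hoxb6a, hoxc6a and hoxd3a turned negative, and so did the median of group 6. Log2 CPM was computed with a prior count of 2, which understates the steps of low genes, and several genes of groups 11 to 13 had few counts. Spearman's rho between step and paralog number was 0.73 over the 48 members, given as a description because all members share the same 6 libraries. Within single clusters it was 0.90 over the 11 genes of hoxba, 0.85 over the 11 of hoxca, 0.77 over the 6 of hoxaa and 0.29 over the 7 of hoxda.

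**Figure D2:**
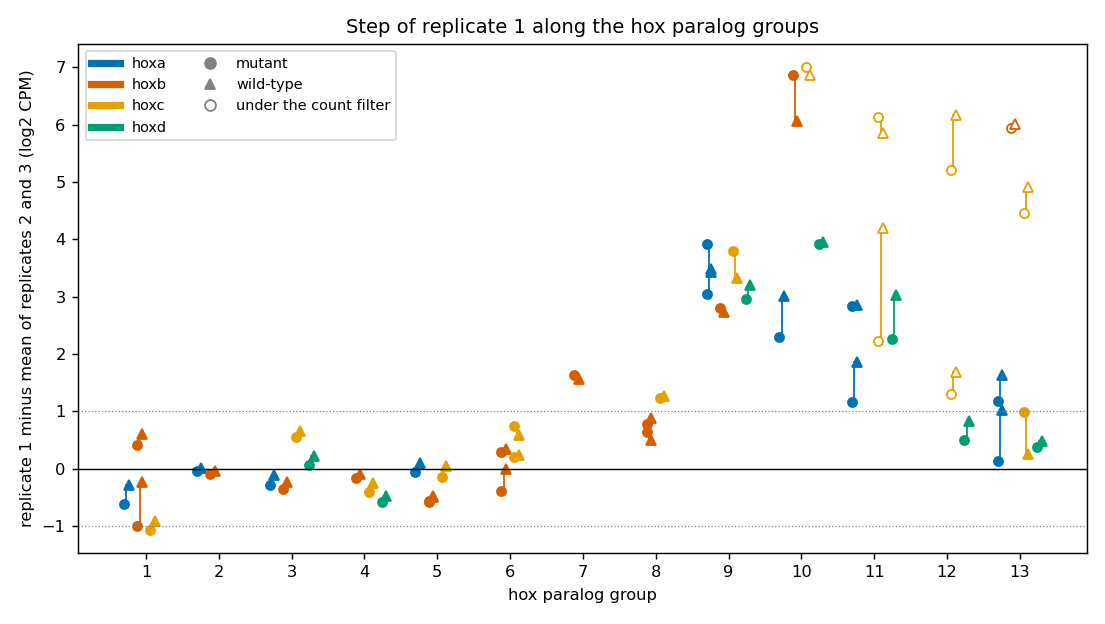
Step of each hox gene (log2, replicate 1 minus the mean of replicates 2 and 3, y axis) against paralog group (x axis), with circles for the mutant and triangles for the wild-type; hollow symbols mark genes under the filter and dotted lines a 2-fold difference. Up to group 5 the points lie within 2-fold of 0, except that of hoxc1a in the mutant (-1.06). The highest values are in group 10, and points spread widely from group 10 to group 13.

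A step over 2-fold in the higher direction was seen in 14 of the 41 members that passed, beside 6.84% of all genes that passed. Of these 14, 12 were in groups 9 to 13 and the other two were hoxb7a and hoxc8a. Over all 48 members the count was 21. No member was over 2-fold lower in replicate 1, where the share among all genes was also 6.84%, though hoxc1a was at -1.06 in the mutant pair alone and at -1.31 under library totals. Both replicate 1 libraries stood above all 4 others for 22 of 41 members, beside 33.7% of all genes, and below all 4 others for 10 of 41, beside 35% of all genes. Among the 23 genes of groups 9 to 13, hoxc13b was the exception to the higher pattern. The 10 lower members were 8 of groups 1 to 4 and 2 of groups 5 to 8.

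The anterior genes, which act in the hindbrain and the neural crest it gives rise to, had small steps. Group 1 genes help set up hindbrain segments. hoxc1a had the lowest step of all members, -0.99, with 6.52 and 7.12 CPM in mutant and wild-type replicate 1, against 12.5 and 14.8 CPM in mutant replicates 2 and 3 and 13.6 and 13.2 CPM in wild-type replicates 2 and 3. hoxb1a, which gives the fourth hindbrain segment its identity, had 0.798 and 1.37 CPM in mutant and wild-type replicate 1, against 1.57 and 1.65 CPM in mutant and 1.76 and 1.5 CPM in wild-type replicates 2 and 3. Both genes were lower in both replicate 1 libraries than in any other library, and for hoxb1a the replicate 1 pair itself was spread, with a step of -0.99 in the mutant and -0.24 in the wild-type. hoxa1a stood at 2.86 and 2.99 CPM in mutant and wild-type replicate 1, against 4.84 and 3.99 CPM in mutant and 3.62 and 3.65 CPM in wild-type replicates 2 and 3.

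Among the group 2 genes, hoxb2a had 11.5 and 10.6 CPM in mutant and wild-type replicate 1, against 13.7 and 11 CPM in mutant and 11.1 and 10.7 CPM in wild-type replicates 2 and 3, so the libraries overlapped. hoxa2b, which gives the second pharyngeal arch its identity, lay between 9 and 10.3 CPM in all 6 libraries. hoxb3a, a gene of the posterior hindbrain, had 75.8 and 76.8 CPM in mutant and wild-type replicate 1, against 104 and 90.2 CPM in mutant and 94.3 and 85.3 CPM in wild-type replicates 2 and 3. hoxb3a was thus lower in replicate 1 with no overlap, by 0.29 on the log2 scale. hoxb4a, used from the most posterior hindbrain into the spinal cord, differed little, with 17.0 and 17.7 CPM in mutant and wild-type replicate 1, against 19.8 and 18.5 CPM in mutant and 19.7 and 18.1 CPM in wild-type replicates 2 and 3.

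Positive steps among the anterior genes were found for hoxb1b (0.51), hoxc3a (0.61) and hoxd3a (0.14), the last of which was -0.18 under library totals. hoxc3a had 29.5 and 29.4 CPM in mutant and wild-type replicate 1, against 21.6 and 18.4 CPM in mutant and 22.0 and 15.6 CPM in wild-type replicates 2 and 3. In the RefSeq annotation the span of hoxc3a overlaps those of 5 other members, among them hoxc8a and hoxc9a, and the span of hoxb1b overlaps those of hoxb5b and hoxb6b. The span of hoxb3a overlaps those of hoxb4a, hoxb5a and hoxb6a, and that of hoxa3a overlaps hoxa5a. Counts of overlapping genes are uncertain, since no source used here names the annotation release or the strand setting of the counting, and their part in these steps was not tested.

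Groups 5 to 8, whose genes are used from the neck region into the anterior trunk and the spinal cord along it, had steps of both signs. hoxb5a had 31.6 and 32.6 CPM in mutant and wild-type replicate 1, against 47.0 and 47.7 CPM in mutant and 47.5 and 43.3 CPM in wild-type replicates 2 and 3. Its duplicate hoxb5b had the same step of -0.53. hoxb6b had 10.1 and 11.6 CPM in mutant and wild-type replicate 1, against 15.1 and 11.7 CPM in mutant and 12.9 and 10.3 CPM in wild-type replicates 2 and 3, with the libraries overlapping. hoxc6a, a gene of the anterior trunk, overlapped too, with 13.2 and 12.3 CPM in mutant and wild-type replicate 1, against 13.4 and 9.77 CPM in mutant and 12.5 and 8.65 CPM in wild-type replicates 2 and 3.

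From group 7 on the replicate 1 libraries were higher. hoxb7a had 9.02 and 7.73 CPM in mutant and wild-type replicate 1, against 3.61 and 2.31 CPM in mutant and 3.49 and 1.95 CPM in wild-type replicates 2 and 3, a step of 1.6. hoxb8a, with 32.8 and 35.3 CPM in mutant and wild-type replicate 1, stood against 20.4 and 17.6 CPM in mutant and 21.4 and 16.9 CPM in wild-type replicates 2 and 3. Along the hoxba cluster the sign therefore turned between hoxb5a (-0.53) and hoxb6a (0.32, or about 0 under library totals), and the step was 1.6 at hoxb7a, 0.84 at hoxb8a, 2.78 at hoxb9a and 6.47 at hoxb10a.

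**Figure D3:**
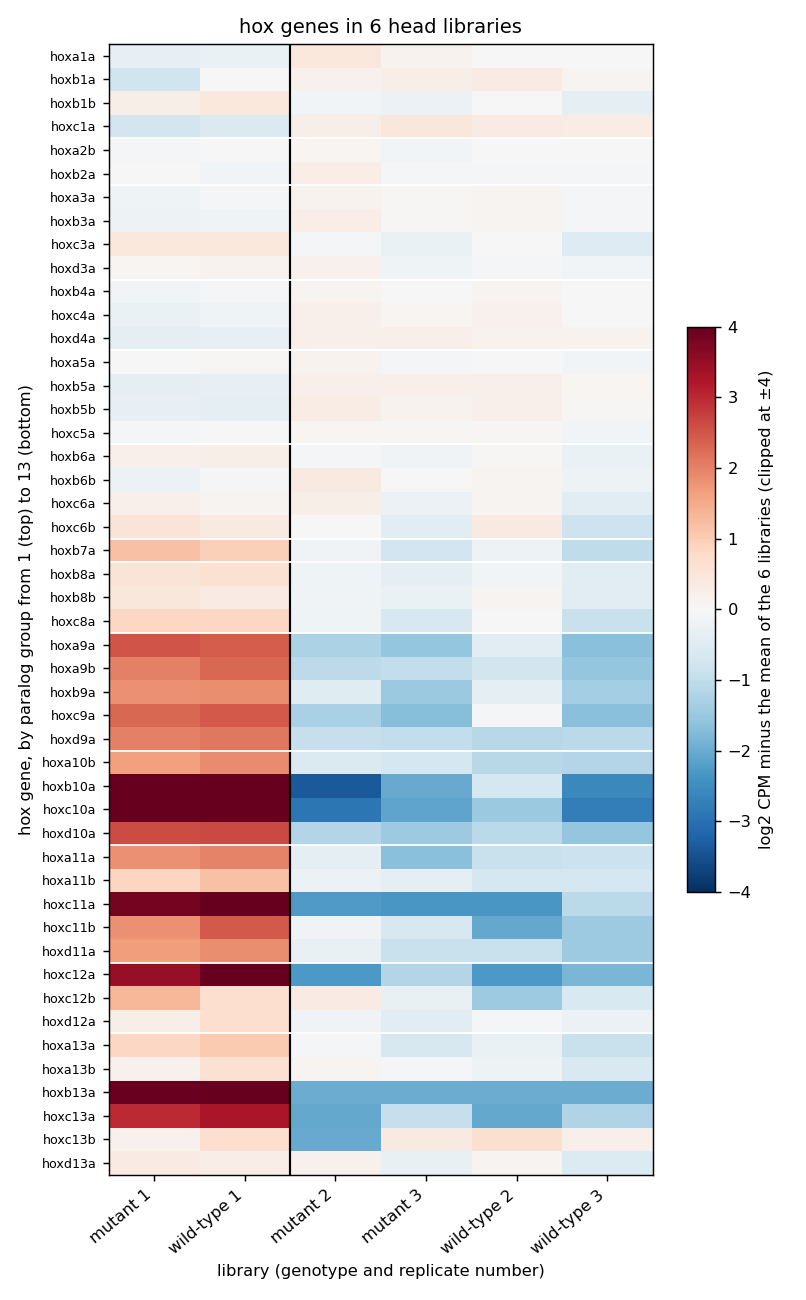
Level of each hox gene in each library as log2 CPM minus the mean of the 6 libraries (colour, cut at 4 in either direction), with genes ordered by paralog group down the page and the mutant and wild-type replicate 1 libraries on the left. The replicate 1 columns are above the mean in groups 9 to 12 and near or below it in groups 1 to 5.

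Group 9 marks the passage to the posterior trunk, and its genes are also used in the early pectoral fin. All 5 members had steps between 2.78 and 3.69. hoxb9a had 21.6 and 22.4 CPM in mutant and wild-type replicate 1, against 4.34 and 2.17 CPM in mutant and 4.66 and 2.37 CPM in wild-type replicates 2 and 3. hoxc9a was at 11.3 and 12.6 CPM in mutant and wild-type replicate 1, against 0.928 and 0.682 CPM in mutant and 2.19 and 0.699 CPM in wild-type replicates 2 and 3. No library of replicates 2 and 3 came near those of replicate 1 for either gene. Ranked among the 24765 genes that passed, the steps of hoxa9a, hoxc9a, hoxa9b and hoxd9a were 19th, 26th, 42nd and 55th from the top.

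Group 10 held the highest steps, though the pooled ratios given below for hoxc12a and hoxb13a were as high or higher. hoxb10a, second of all tested genes by step (6.47), had 287 and 497 counts, or 6.36 and 7.59 CPM, in mutant and wild-type replicate 1, against 1 and 7 counts in mutant and 20 and 4 counts in wild-type replicates 2 and 3. hoxc10a, which did not pass the filter, had 344 and 593 counts in mutant and wild-type replicate 1, against 2 and 6 counts in mutant and 10 and 3 counts in wild-type replicates 2 and 3. The pooled ratio of replicate 1 over replicates 2 and 3 was 91.0 for hoxb10a (95% counting interval 63.9 to 134) and 166 for hoxc10a (108 to 269). Both genes were thus close to undetected outside replicate 1.

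The hoxa and hoxd members of group 10 kept a measurable level in every library. hoxa10b had 10.4 and 12.3 CPM in mutant and wild-type replicate 1, against 2.19 and 2.03 CPM in mutant and 1.53 and 1.46 CPM in wild-type replicates 2 and 3. hoxd10a had 10.7 and 10.9 CPM in mutant and wild-type replicate 1, against 0.760 and 0.617 CPM in mutant and 0.809 and 0.572 CPM in wild-type replicates 2 and 3, and its step of 3.94 was 9th of all tested genes.

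In groups 11 to 13, the groups of the tail and of the outer fin or limb, the genes with the fewest counts in replicates 2 and 3 were again chiefly hoxb and hoxc genes. Gene lengths were not used, so this is a statement on detection. hoxc11a had 104 and 190 counts in mutant and wild-type replicate 1, against 1 and 1 count in mutant and 1 and 6 counts in wild-type replicates 2 and 3, a ratio of 121 (63.0 to 268). hoxc12a had 56 and 127 counts in mutant and wild-type replicate 1 and 4 counts in the 4 other libraries together, a ratio of 170 (65.3 to 630). hoxc13a had 33 and 59 counts in mutant and wild-type replicate 1 and 5 counts in the others together, a ratio of 68.3 (28.3 to 216). hoxb13a, a gene of the tail bud, had 63 and 96 counts in mutant and wild-type replicate 1 and 0 counts in all 4 others. Against the 3 counts that a count of 0 allows over those 4 libraries, it was at least 197-fold higher in replicate 1, and the lower exact 95% limit of the ratio, which also takes in the counting error of replicate 1, was 158. These 4 genes were all but undetected in replicates 2 and 3 of either genotype.

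The hoxa and hoxd genes of these groups varied. hoxa11a had 29 and 47 counts in mutant and wild-type replicate 1, against 11 and 4 counts in mutant and 8 and 9 counts in wild-type replicates 2 and 3, a ratio of 8.82 (5.77 to 13.8). hoxd11a had a ratio of 6.40 (5.49 to 7.48) and hoxa13a one of 2.73 (2.26 to 3.30). The ratio of hoxa11b was 2.94 (2.68 to 3.23), and the remaining hoxa and hoxd genes of groups 11 to 13 had smaller ratios than hoxa13a. hoxa11b had 6.38 and 7.87 CPM in mutant and wild-type replicate 1, against 3.01 and 2.66 CPM in mutant and 2.15 and 2.13 CPM in wild-type replicates 2 and 3. hoxd12a had 1.6 and 2.17 CPM in mutant and wild-type replicate 1, against 1.24 and 1.00 CPM in mutant and 1.28 and 1.15 CPM in wild-type replicates 2 and 3. hoxa13b, which acts in the outermost fin, had 3.41 and 4.69 CPM in mutant and wild-type replicate 1, against 3.32 and 2.88 CPM in mutant and 2.63 and 2.01 CPM in wild-type replicates 2 and 3. For hoxd12a and hoxa13b the gap was small, and for hoxa13b the genotypes gave different values, with a step of 0.14 in the mutant and 1.02 in the wild-type. hoxd13a, at the far end of its cluster, had 1.06 and 1.02 CPM in mutant and wild-type replicate 1, against 0.962 and 0.682 CPM in mutant and 0.916 and 0.572 CPM in wild-type replicates 2 and 3.

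**Figure D4:**
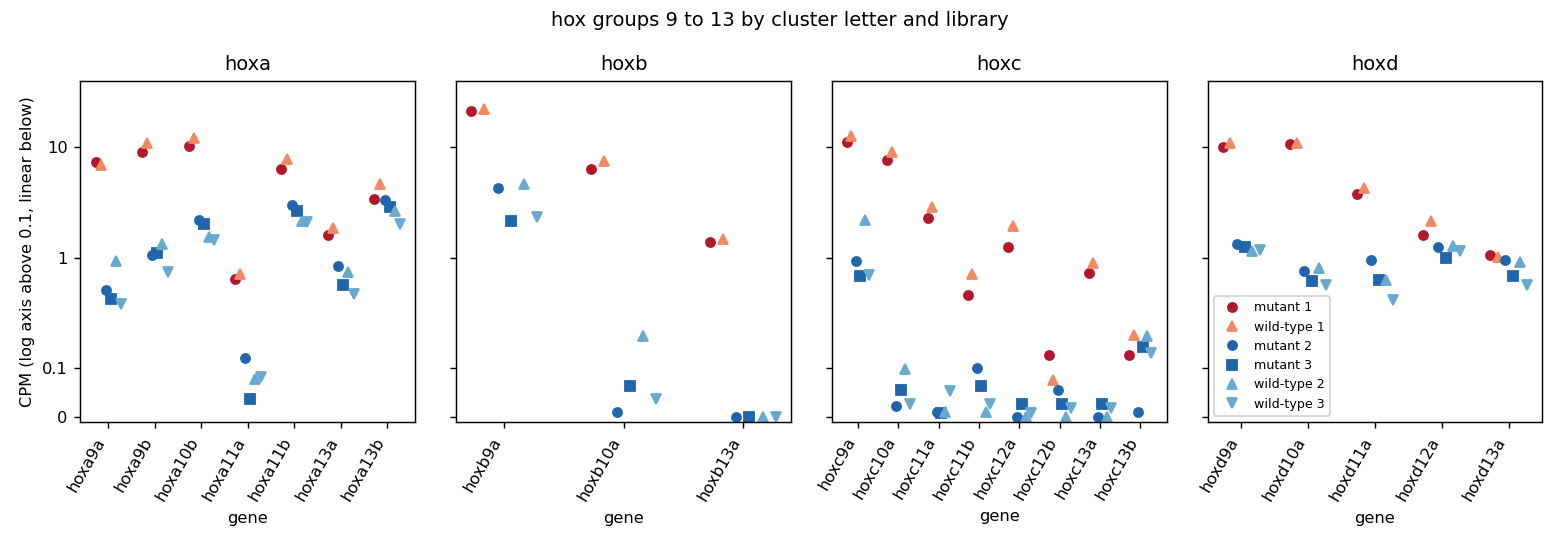
CPM of every gene of groups 9 to 13 in each library, in 4 panels by cluster letter, on a symmetric log axis that is linear below 0.1. The hoxb and hoxc genes of groups 10 to 13 lie at 0.195 CPM or below in replicates 2 and 3. Of the hoxa and hoxd genes only hoxa11a does so. CPM is not adjusted for gene length, so heights do not rank genes by level.

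Summed over groups 10 to 13, the 9 hoxb and hoxc genes had 20.4 and 24.9 CPM in mutant and wild-type replicate 1, against 0.212 and 0.433 CPM in mutant and 0.507 and 0.327 CPM in wild-type replicates 2 and 3. The 9 hoxa and hoxd genes of the same groups had 39.6 and 45.9 CPM in mutant and wild-type replicate 1, against 13.4 and 11.1 CPM in mutant and 10.8 and 8.87 CPM in wild-type replicates 2 and 3. The hoxb and hoxc sum in replicates 2 and 3 rested on 19 and 47 counts in mutant and 52 and 36 counts in wild-type libraries. The split by letter was chosen after the values were seen, and it is given with no test. A step over 2-fold was found for 8 of the 9 hoxb and hoxc genes, the exception being hoxc13b, and for 6 of the 9 hoxa and hoxd genes.

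The copies made by the genome duplication did not always have like steps. Of 11 pairs with both copies in the table, the a copy had the higher step in 8 and the b copy in 3. The closest pair was hoxb5a and hoxb5b, which both had -0.53, and hoxb8a and hoxb8b followed with 0.84 and 0.57. In group 9, hoxa9a and hoxa9b had 3.69 and 3.24. In the hoxc pairs of groups 11 to 13 they were far apart, with 6.0 for hoxc11a and 3.21 for hoxc11b, 5.69 for hoxc12a and 1.5 for hoxc12b, and 4.69 for hoxc13a and 0.62 for hoxc13b. The last 2 of those b copies had at most 20 counts in any library. hoxc12b had 6 and 5 counts in mutant and wild-type replicate 1, against 5 and 3 counts in mutant and 0 and 2 counts in wild-type replicates 2 and 3.

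Replicates 2 and 3 differed from each other as well, but far less, and among members that passed the filter in the same order. Over those members the median of replicate 2 minus replicate 3 (log2) in the mutant was 0.13, 0.19 and 0.28 in groups 1 to 4, 5 to 8 and 9 to 13. In the wild-type it was 0.12, 0.33 and 0.52. Over all genes these medians were -0.0035 in the mutant and -0.01 in the wild-type. With members under the filter included, the medians of groups 9 to 13 were 0.20 in the mutant, close to that of groups 5 to 8, and 0.38 in the wild-type. For the 9 hoxb and hoxc genes of groups 10 to 13 they were -0.79 and -0.48, on few counts. Replicate 2 was the higher in both genotypes for 30 of 41 members, beside 30.5% of all genes. By band these were 8 of 13, 11 of 12 and 11 of 16, and no member under the filter was among them.

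Most genes next to the clusters had small steps. Of the 5 protein-coding genes nearest on each side of every cluster, a check chosen after the values were seen, 61 passed the filter, with a median step of -0.07 and a range of -1.01 to 1.06. evx2, a homeobox gene that lies beside hoxd13a, had 11.5 and 11.3 CPM in mutant and wild-type replicate 1, against 24.0 and 20.9 CPM in mutant and 20.3 and 20.2 CPM in wild-type replicates 2 and 3. Its step of -0.90 was thus opposite in sign to that of its neighbour. eve1, the homeobox gene that lies beside hoxb13a, did not pass the filter and went the other way, with a step of 1.70 on 11 and 17 counts in mutant and wild-type replicate 1, against 6 and 8 counts in mutant and 4 and 8 counts in wild-type replicates 2 and 3.

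A list of 22 genes held chiefly regulators upstream of hox genes, such as the Cdx factors and the enzymes and receptors of retinoic acid signalling. It also held evx2, the neighbour of hoxd13a given above. Of these genes 21 passed the filter, with a median step of 0.12 (-0.20 under library totals) and no step over 2-fold. The remaining gene, cdx4, low in every library, which in zebrafish promotes posterior hox expression, had 34 and 32 counts in mutant and wild-type replicate 1, against 0 and 0 counts in mutant and 4 and 2 counts in wild-type replicates 2 and 3. cyp26c1, which breaks down retinoic acid in the hindbrain, had 8.49 and 8.77 CPM in mutant and wild-type replicate 1, against 15.9 to 17.2 CPM in the other libraries. Of 13 Hox cofactors of the Pbx, Meis and Pknox families, 5 had a positive and 8 a negative step, with a median of -0.22. The widest was that of pbx1a, with 32.2 and 32.1 CPM in mutant and wild-type replicate 1, against 83.2 to 88.2 CPM in the others. Of 24 Polycomb and Trithorax genes, whose products keep hox genes off or on, 22 had a negative step (median -0.32) and none reached 2-fold.

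By summed level, markers of skeletal muscle, liver and intestine stood high in the same libraries as the posterior hox genes. Those of pronephros, notochord and pectoral fin did so by less, and the pectoral fin sum was held chiefly by and1, and2 and and3. Those of spinal cord and exocrine pancreas did not. All 25 skeletal muscle markers had a positive step (median 2.09, 20 over 2-fold), and their summed level was 93485 to 94323 CPM in the replicate 1 libraries, against 13889 to 24267 CPM in the other 4. The sum of 11 liver markers was 7851 to 8303 CPM in replicate 1, against 1910 to 2247 CPM in the others (10 of 11 positive, median 1.75), and that of 10 intestine markers was 7494 to 8360 CPM in replicate 1, against 859 to 1131 CPM in the others (9 of 10 positive, median 0.81). Under library totals 23 of 25 muscle, 9 of 11 liver and 7 of 10 intestine markers had a positive step (medians 1.76, 1.42 and 0.49). Of 14 markers of the pronephros, the larval kidney, 10 had a positive and 4 a negative step (median 0.59). Their sum was 410 to 423 CPM in replicate 1, against 313 to 361 CPM in the others. Under library totals 8 of the 14 were positive (median 0.27). slc12a3, a salt transporter of the distal kidney tubule, had 9.22 and 7.35 CPM in mutant and wild-type replicate 1, against 0.112 and 0.0921 CPM in mutant and 0.0585 and 0.0816 CPM in wild-type replicates 2 and 3. No listed marker of muscle, liver or intestine was at 0 in any library.

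The other lists gave smaller or opposite steps, and the medians of pectoral fin, spinal cord and pharyngeal cartilage turned negative under library totals. The 8 notochord markers had a median step of 0.50 (6 positive, sum 4534 to 4686 CPM in replicate 1, against 3099 to 4270 CPM in the others). The 8 pectoral fin genes had 0.22 (6 positive, 545 to 579 CPM in replicate 1, against 345 to 393 CPM in the others). Among them tbx5b, sall4, fgf24, fgf10a and tbx5a had steps of -0.78, -0.06, 0.03, 0.09 and 0.36. Each was at most 15.9 CPM in any library, so and1, and2 and and3 held most of the sum. The 12 genes of pharyngeal cartilage had 0.09 (9 positive, 5328 to 5579 CPM in replicate 1, against 4377 to 5495 CPM in the others). The notochord list shares col2a1a with this list, and the part of col2a1a in either sum was not tested. Spinal cord genes, chiefly of motor neurons, had a median of 0.10 with 5 of 9 positive (sum 137 to 138 CPM in replicate 1, against 148 to 159 CPM in the others). Of these 9 genes, 2 were over 2-fold higher and 1 over 2-fold lower in replicate 1, so the sum hides steps of both signs. Their median was 0.24 in the mutant and -0.05 in the wild-type. All 18 photoreceptor markers were lower in replicate 1 (median -0.88, sum 2255 to 2387 CPM in replicate 1, against 3386 to 5572 CPM in the others). Forebrain and midbrain markers were lower in 16 of 18 (median -0.69, sum 368 to 370 CPM in replicate 1, against 579 to 621 CPM in the others). Those of the cerebellum were lower in 9 of 11 (median -0.33) and those of the exocrine pancreas in 10 of 11 (median -0.49). The genotypes differed for exocrine pancreas, with a median of -0.08 in the mutant and -0.70 in the wild-type. Its sums overlapped, at 77.8 to 112 CPM in replicate 1, against 81.2 to 127 CPM in the others. What these lists have to do with the hox step was not tested.

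Against that spread, no hox gene was called between genotypes. Of 41 members tested, 0 had an adjusted p under 0.05 by edgeR's quasi-likelihood test, beside 0% of all 24765 genes, and 0 had an unadjusted p under 0.05, beside 0.283% of all genes. With the replicate number as a block the counts of hox genes were again 0 and 0, beside 0% and 4.6% of all genes. DESeq2 called 0 hox genes, with 0 at an unadjusted p under 0.05 (beside 0.287%), and limma-voom called 0 with 0 at an unadjusted p under 0.05 (beside 0.295%). DESeq2 with the block also called 0 (beside 0.0756% of all genes), with 1 member, hoxc9a, at an unadjusted p under 0.05 (beside 1.6%). In a blocked edgeR fit of replicates 2 and 3 alone, chosen after the values were seen, 0 of 39 members were called and 3 had an unadjusted p under 0.05 (beside 0% and 2.63% of 25082 genes). No member had all 3 mutant libraries above all 3 wild-type libraries, beside 1.09% of all genes, or all 3 below, beside 0.945%.

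The median log2 fold change of mutant over wild-type was 0.01 in groups 1 to 4, 0.03 in groups 5 to 8 and -0.06 in groups 9 to 13, and 0.0004 over all genes. Taken within replicate numbers 1, 2 and 3, the median over groups 9 to 13 was -0.21, 0.01 and 0.21. The sign thus differed between replicate numbers, and the median over groups 9 to 13 in the fit was -1.54 without the mutant replicate 1 library and 1.63 without the wild-type replicate 1 library. Without any one of the other 4 libraries it lay between -0.61 and 0.26. The posterior sum was 52.9 ± 57.8 CPM in mutants and 56.9 ± 67.3 CPM in wild-types (SD, n = 3 each), a spread that comes from replicate 1.

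**Figure D5:**
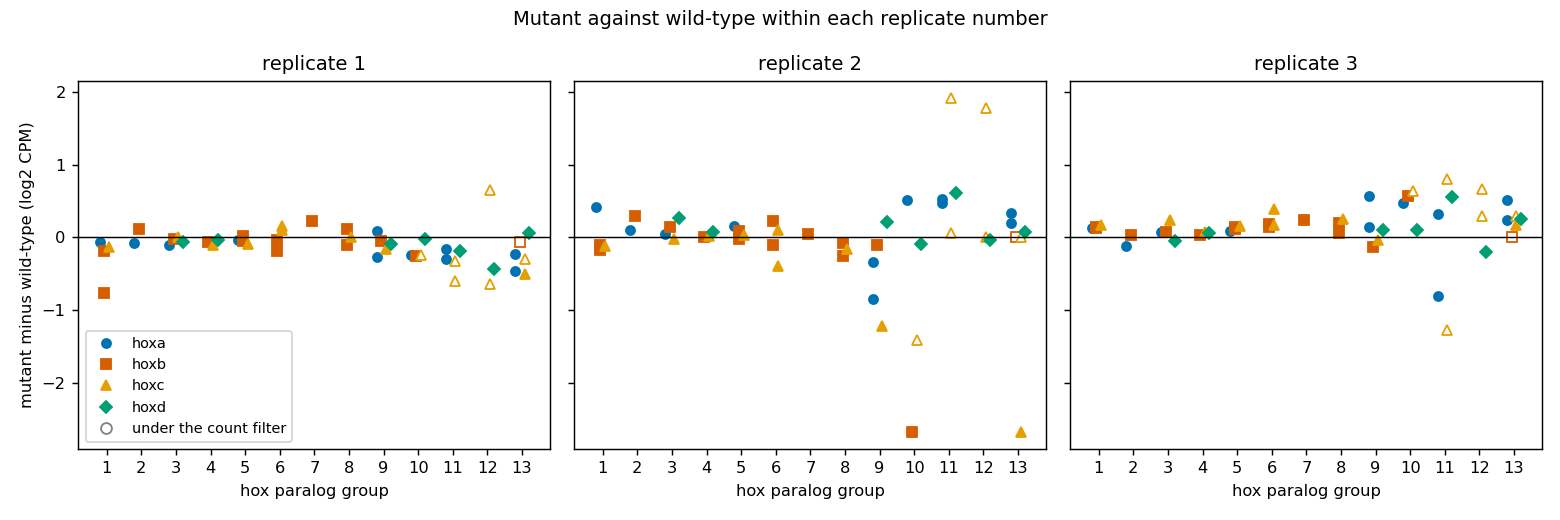
Mutant minus wild-type difference of each hox gene (log2 CPM, y axis) by paralog group (x axis), with 1 panel for each replicate number. Symbols and colours give the cluster letter, and hollow symbols mark genes under the count filter. Points of groups 1 to 8 lie between -0.77 (hoxb1a, replicate 1) and 0.42, and those of groups 9 to 13 between -2.67 and 1.92.

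The size of difference that these libraries could show varied along the axis. With the block, the 95% interval of the log2 fold change lay within 2-fold in either direction for all 25 members of groups 1 to 8, and for 12 of the 16 tested in groups 9 to 13. The other 4 were hoxc9a, hoxb10a, hoxa11a and hoxc13b. Without the block the counts were 23 of 25 and 2 of 16. The interval of hoxb10a ran from -1.6 to 0.68 with the block and from -5.73 to 5.11 without it.

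The smallest p values are given by name, and none passed adjustment. hoxb2a averaged 12.1 ± 1.41 CPM in mutants and 10.8 ± 0.252 CPM in wild-types (SD, n = 3 each), with a log2 fold change of 0.15 (SE 0.13, adjusted p = 1 by edgeR's quasi-likelihood test across all genes). With the block its fold change was 0.15 (SE 0.074, interval -0.02 to 0.32, adjusted p = 0.939 by edgeR). hoxc6a, with the smallest blocked p of all members, had a blocked log2 fold change of 0.13 (interval -0.02 to 0.27, adjusted p = 0.939 by edgeR), and hoxb7a had 0.17 (interval -0.06 to 0.40). hoxa1a had 0.19 (SE 0.23) without the block. hoxc13b had -0.82 (SE 0.74) without the block, on 6, 1 and 17 counts in mutant replicates 1, 2 and 3, against 13, 20 and 15 counts in wild-type replicates 1, 2 and 3. None of the cofactors, upstream regulators, Polycomb and Trithorax genes or tissue markers above was called between genotypes by edgeR with or without the block.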

How the data were processed

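RNA for 3 mutant and 3 wild-type head libraries was extracted with either of 2 kits, not given library by library, and libraries were made with a stranded mRNA kit, per the labels' protocols. The submitters' processing notes list STAR 2.7.3, Subread, featureCounts 1.6.4, DESeq2 and, as genome build, GRCz11. The authors deposited a table of whole-number counts for 32520 genes. They also deposited a table of normalized signal values, which equals the counts divided by 1 factor per library to within 0.164 and was not tested. No 2 libraries agreed within sampling noise (chi-square per gene 4.778 to 696.1).

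Counts were tested with edgeR 4.0.16 (TMM, filterByExpr by genotype with a minimum count of 10, robust quasi-likelihood F test, 2-sided, Benjamini-Hochberg over 24765 genes), with DESeq2 1.42.0 and limma 3.58.1 (voom) as alternatives. The R version was 4.3.3. Adjusted p under 0.05 was a call. Log2 CPM used a prior count of 2, which understates differences of low genes. Ratios of pooled counts have exact (Clopper-Pearson) 95% intervals, which cover counting error only. Deviations from the group mean correlated between same-numbered libraries at 0.863, 0.579 and 0.744 for replicates 1, 2 and 3 over 24765 genes. Mutant replicate 3 with wild-type replicate 2, and mutant 2 with wild-type 3, also correlated, at 0.418 and 0.365. With replicate 1 apart in both genotypes, a positive value among replicates 2 and 3 arises in part under either pairing. The numbers, which come from the labels, were taken to pair the libraries.

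The members, bands and lists were chosen with earlier results of these data known. Members were named by fixed criteria: the highest mean CPM in each paralog group, the 3 smallest p with and without the block, and the 3 highest and 3 lowest steps. From the other lists, genes could be named by the 2 smallest blocked p or the 2 widest steps. Other genes named were chosen after their values were seen. A list name held by several identifiers (meis2a, evx1, hp) or by none (cela1.1, isl1a, reln) was left out. The cofactor counted as meis2b was, however, a gene that the deposited counts name meis2a. The lists were Hox cofactors, upstream regulators, Polycomb and Trithorax genes, skeletal muscle, pectoral fin, notochord, pronephros, liver, exocrine pancreas, intestine, spinal cord, photoreceptor, forebrain and midbrain, cerebellum and pharyngeal cartilage. Some lists shared genes: cdh17 was in intestine and pronephros, cdx1b in intestine and upstream regulators, and col2a1a in notochord and pharyngeal cartilage. Alternatives tried were the block, other tools, scalings, filters and prior counts, and each library left out in turn.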

Additional observations from a re-analysis of the deposited data

How the results depend on the processing

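No hox gene was called between genotypes under any of the 15 alternatives. With the replicate block, which uses the pairing by replicate number, the median log2 fold change over the 41 members was 0.03, against 0.0007 without it, and it was 0.01, 0.04 and -0.04 in groups 1 to 4, 5 to 8 and 9 to 13. The block changed no hox call. Over all genes, DESeq2 with the block called 18 and every other setting called 0. In a blocked fit of replicates 2 and 3 alone, chosen after seeing the data, the hox median was 0.07, that of groups 9 to 13 was 0.14, 0 of 39 members were called and 3 (beside 2.63% of all genes) had an unadjusted p under 0.05: hoxa10b, hoxa11b and hoxa13b, with log2 fold changes of 0.50, 0.40 and 0.43 and an adjusted p of 0.997 by edgeR.

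Leaving out 1 library at a time, the genotype median ranged from -0.25 to 0.19 over all members, from -0.057 to 0.10 in groups 1 to 4 and from -0.082 to 0.14 in groups 5 to 8. In groups 9 to 13 it ranged from -1.54 without mutant replicate 1 to 1.63 without wild-type replicate 1, and lay between -0.61 and 0.26 without each other library. The sign of hoxb7a turned without mutant replicate 1 (-0.56) and without wild-type replicate 3 (-0.18), within a range up to 0.86, and that of hoxc6a turned without wild-type replicate 3 (-0.032), within a range up to 0.26. The median step ranged from -0.28 to -0.11, 0.16 to 0.38 and 2.55 to 3.20 in the 3 bands. The count over 2-fold ranged from 17 of 43 members to 21 of 47, against 14 of 41 with all libraries. With a library fewer, more members pass the filter and the steps themselves change.

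With library totals in place of TMM, the median step was -0.52 in groups 1 to 4, -0.054 in groups 5 to 8, where the sign turned, and 2.39 in groups 9 to 13, and that of all genes was -0.33. Relative to all genes the order along the axis stayed. All 23 members of groups 9 to 13 had a positive step under TMM, DESeq2 size factors and library totals, and hoxb1b and hoxc3a had one under all 3 as well. With no filter the count over 2-fold was 21 of 48, and with a stricter one 10 of 35. Depth limits the genes of groups 10 to 13: a gene at 0 counts in the 4 libraries of replicates 2 and 3 was not detectable at this depth, and is not shown to be absent.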
